A study of Drosophila melanogaster with 12 samples.

Results

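Genes of the contractile apparatus of muscle were followed in heads of adult Drosophila melanogaster. The set was chosen by gene symbol and holds 10 genes. Of these, 3 are known for the indirect flight muscle of the thorax: Act88F, fln and TpnC4. The other 7 (Mlc1, Mlc2, Act79B, Act57B, up, wupA and Mhc) are used more widely in muscle. Probe sets carried the symbols of 7 genes, all 3 flight muscle genes and 4 general ones (Mlc1, Mlc2, Act79B and up), out of 10844 genes named on the array. Act57B, wupA and Mhc were not analysed here.

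All samples came from y w flies, mutant in the body colour gene yellow and the eye colour gene white. The flies had lived in a light and dark cycle with 12 h of each, and were taken at intervals of 4 h, first through another such day (LD) and then through a day of constant darkness (DD). DD thus always followed LD, and any effect of the order of collection cannot be told apart from that of the light regime. LD arrays are named by Zeitgeber time (ZT) and DD arrays by circadian time (CT), each at 4, 8, 12, 16, 20 and 24 h. Each of the 12 arrays measured a pool of about 100 to 200 heads that had been broken off frozen flies and collected on sieves. The labels do not give the age or sex of the flies. No time point was repeated, so the error of every estimate is the scatter of the 12 arrays around a fitted model, and the number of arrays limits the precision.

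The sarcomere is the contractile unit of muscle. Thin filaments of actin, carrying troponin and tropomyosin, slide along thick filaments of myosin, and calcium binding to troponin C releases the block on contraction. The indirect flight muscles, which fill most of the thorax, use their own actin (Act88F), their own thick filament protein flightin (fln) and a troponin C isoform (TpnC4). Heads lack indirect flight muscle but hold other muscles, such as those of the proboscis and pharynx, which are built from proteins shared by many muscles. In pooled RNA, fewer cells of a type and less RNA per cell cannot be told apart.

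By RefSeq, Release 6, the flight muscle members are Act88F (CG5178, chromosome arm 3R), fln (CG7445, 3L) and TpnC4 (CG12408, 2R). The general members are Mlc1, the alkali light chain of myosin (CG5596, 3R), Mlc2, its regulatory light chain (CG2184, 3R), and up, which encodes troponin T (CG7107, X). They also include Act79B, an actin known from tubular muscles of the leg and thorax (CG7478, 3L). The probe set of Act79B carries Affymetrix's mark for probes that match several members of a gene family, so its signal may include other actins.

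Among the head markers, 7 of 8 measured genes lay above the mouse and yeast control probe sets in every array. The photoreceptor arrestin gene Arr2, for example, lay between 11.75 and 12.41. The neuronal gene elav lay within the control range in all 12 arrays. Arrays differed in a measure of RNA quality, the signal at the 3' end of control transcripts minus that at the 5' end. It was 3.46 (log2) at CT12, 3.12 at ZT4 and 2.64 at CT4. The other 9 arrays had 1.69 to 2.20. The 8 mouse and yeast control probe sets have no target in fly RNA and gave values from 2.5 to 4.2, which serves here as a guide to background. Pairwise correlations between arrays ranged from 0.956 to 0.995.

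All values below are RMA expression values on the log2 scale as the authors deposited them, with 1 unit equal to a doubling. Act88F had 4.2 at ZT4, 4.55 at ZT8, 6.49 at ZT12, 4.09 at ZT16, 3.82 at ZT20 and 6.10 at ZT24. In DD it had 7.30 at CT4, 7.30 at CT8, 9.74 at CT12, 4.21 at CT16, 4.78 at CT20 and 7.27 at CT24. The 4 arrays at 16 and 20 h were thus among the 6 lowest on both days, with ZT4 and ZT8, and CT12 was far above the rest. The range of 5.91 corresponded to 60.2-fold. All 3 flight muscle members, and 0 of 4 general ones, had a range over 4, against 0.165% of all probe sets.

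The gene for flightin followed a similar course. In LD fln had 3.29, 3.43, 5.02, 3.12, 3.22 and 4.13 at ZT4 to ZT24. In DD it had 4.68, 5.77, 7.97, 3.06, 3.13 and 6.06 at CT4 to CT24. All 4 values at 16 and 20 h lay below all 8 values at the other hours, a separation seen in 1.0% of all probe sets, and fln was the only one of the 7 members that showed it. The nearest values were 3.22 at ZT20 and 3.29 at ZT4. All 4 values at 16 and 20 h, and those at ZT4, ZT8 and ZT24, lay within the range of the mouse and yeast controls. The separation is thus partly one of background values. The reverse, all 4 above the other 8, was seen in 0 of 7 members and in 0.523% of all probe sets. The range was 4.91, or 30.1-fold.

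TpnC4 was close to background except at CT12. Its highest value, like that of Act88F, fln and Mlc1, fell on CT12, as it did in 17% of all probe sets. It had 2.59, 2.72, 3.0, 2.38, 2.38 and 2.70 at ZT4 to ZT24, and 3.64, 2.96, 6.93, 2.63, 2.62 and 3.05 at CT4 to CT24. In 11 of 12 arrays it did not exceed the highest mouse or yeast control value, and the same was true of fln in 7 arrays and of Act88F in 2 (ZT16 and ZT20). Fold changes against such values may understate the change in RNA. ZT4 and CT12 ranked highest in 3' minus 5' control signal. Leaving them out, the range was 3.48 for Act88F, 3.0 for fln and 1.26 for TpnC4, so none was over 4.

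**Figure D1:**
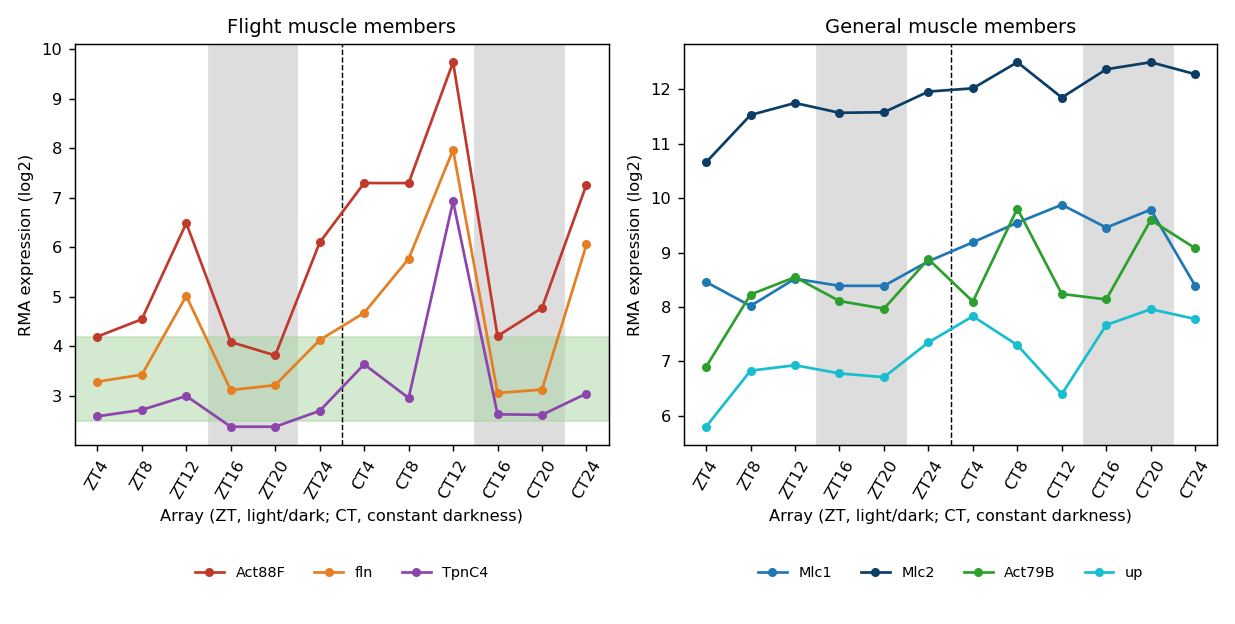
RMA expression (log2, vertical axes) of the 3 flight muscle members (left) and the 4 general members (right) in each of the 12 arrays, in order of collection, 1 array per point; grey marks 16 and 20 h, the dashed line divides LD from DD, and the green band is the range of the mouse and yeast control probe sets. Act88F and fln are low at 16 and 20 h on both days and also at ZT4 and ZT8. All 3 flight muscle members are highest at CT12, where Act88F is 9.74, while Mlc2 stays between 10.66 and 12.50.

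Over all 12 arrays the general members varied less and along other lines. Without ZT4 and CT12 their ranges were 1.77 for Mlc1, 0.97 for Mlc2, 1.84 for Act79B and 1.25 for up. Those of Mlc1 and Act79B were then larger than that of TpnC4 (1.26), and all were smaller than those of Act88F and fln. Mlc2 had 10.66, 11.53, 11.75, 11.57, 11.58 and 11.96 at ZT4 to ZT24, and 12.02, 12.50, 11.85, 12.37, 12.50 and 12.28 at CT4 to CT24. The lowest array was ZT4, and 5 of 6 DD arrays lay above every LD array. Its range was 1.85, or 3.59-fold.

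Mlc1 had 8.46, 8.02, 8.52, 8.39, 8.39 and 8.84 at ZT4 to ZT24. In DD it had 9.19, 9.55, 9.88, 9.46, 9.79 and 8.39 at CT4 to CT24. Apart from CT24, every DD array lay above every LD array, and the values at 16 and 20 h were not set apart from the rest. The range was 1.86.

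The troponin T gene up had 5.80 at ZT4 and between 6.71 and 7.35 in the other LD arrays. In DD it had 6.40 at CT12 and between 7.30 and 7.96 in the others. Its lowest values on each day thus fell on ZT4 and CT12, as did those of Mlc2, and these arrays ranked highest in 3' minus 5' control signal. Whether RNA quality had a part in this was not tested. A further probe set of up stayed between 3.33 and 3.66 in all arrays, within the range of the controls, and is not considered further.

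Act79B had 6.90 at ZT4 and between 7.97 and 8.88 in the other LD arrays. In DD it had 9.81 at CT8, 9.60 at CT20 and 9.08 at CT24, and between 8.10 and 8.24 at CT4, CT12 and CT16. The groups overlapped, with 3 of 6 DD arrays above every LD array. Across the 12 arrays the Pearson correlation was 0.962 between Act88F and fln, 0.818 between Act88F and TpnC4 and 0.825 between fln and TpnC4. It was 0.869 between Mlc2 and up and 0.851 between Mlc2 and Act79B. Between a flight muscle member and a general one it lay between -0.205 and 0.516. The highest of these were those of Mlc1 with TpnC4 (0.516) and Act88F (0.476), above those of Mlc1 with Act79B (0.423) and up (0.353), while Mlc1 with Mlc2 had 0.611. These are descriptions over 12 arrays, in which all genes share an array's RNA quality and tissue make-up.

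At 16 and 20 h, Act88F and fln had lower means than at the other hours while the general members had similar means at both. Act88F averaged 4.23 ± 0.405 (SD, n = 4) at 16 and 20 h and 6.62 ± 1.75 (n = 8) at the other hours. The flightin gene averaged 3.13 ± 0.0668 (n = 4) and 5.04 ± 1.55 (n = 8), and TpnC4 2.50 ± 0.143 (n = 4) and 3.45 ± 1.44 (n = 8). Mlc2 averaged 12.01 ± 0.501 (n = 4) at 16 and 20 h and 11.82 ± 0.555 (n = 8) at the other hours.

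A limma fit of 16 and 20 h against the other hours, with day as a covariate, gave a difference of -2.39 ± 0.591 (log2, SE) for Act88F, 5.25-fold lower, with an adjusted p of 0.230. It gave -1.91 ± 0.581 for fln (3.76-fold lower, adjusted p 0.404) and -0.95 ± 0.601 for TpnC4 (adjusted p 0.806), which was -0.48 without CT12. No member passed the threshold of 0.05 after Benjamini-Hochberg adjustment over 13966 probe sets, of which 14 (0.100%) passed. At an unadjusted p under 0.05, Act88F (0.00160) and fln (0.00643) were counted among the lower probe sets, 2 of 7 members against 3.49% of all probe sets (7.07% in either direction). Without ZT4 and CT12 Act88F fell by 2.28 at 16 and 20 h and passed (limma adjusted p 0.0271); over the other alternatives its adjusted p was higher, up to 0.999 in the LD day alone.

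For the general members the same fit gave 0.15 ± 0.237 (log2, SE) for Mlc1, 0.19 ± 0.201 for Mlc2, -0.02 ± 0.406 for Act79B and 0.25 ± 0.298 for up. The 95% intervals were -0.37 to 0.66, -0.25 to 0.63, -0.90 to 0.86 and -0.40 to 0.90, so a decrease as large as the estimate for Act88F or fln lay outside all 4 of them. The limma adjusted p was between 0.879 and 0.996. The median difference was -1.91 over the 3 flight muscle members and 0.168 over the 4 general members, beside -0.0105 over all probe sets.

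**Figure D2:**
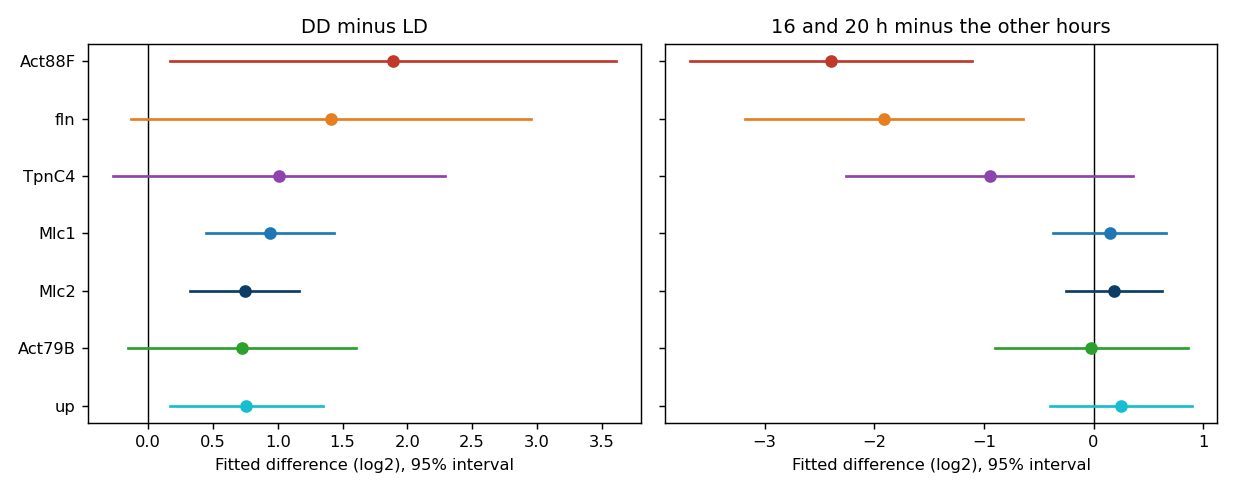
Fitted differences (log2, horizontal axes) with 95% intervals for each of the 7 members, for DD minus LD (left) and for 16 and 20 h minus the other hours (right), from limma fits to 12 arrays. All 7 estimates lie above 0 on the left; on the right the flight muscle members lie between -2.39 and -0.95 and the general members between -0.02 and 0.25.

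The difference between the kinds of muscle gene was tested within arrays. The members and the hours were chosen with earlier results of these data known, so these p-values describe the separation of the arrays and are not independent evidence of it. The measure was taken as the log2 value of a flight muscle gene minus that of Mlc2. Mlc2 took the place of Mhc, which had no named probe set, and was chosen after the array's gene names were seen. For Act88F this ratio was -7.48 at ZT16, -7.76 at ZT20, -8.16 at CT16 and -7.72 at CT20. At the other hours its lowest value was -6.98, at ZT8, and its highest -2.12, at CT12. The ratios of the 4 and 8 arrays did not overlap. Their means differed by -2.58, a 5.98-fold lower ratio at 16 and 20 h. The exact permutation test (two-sided) gave p = 0.00404, adjusted over 6 ratio tests 0.0121. Act88F itself did overlap, with 4.2 at ZT4 and 4.55 at ZT8 beside 4.21 at CT16 and 4.78 at CT20. Mlc2 was 10.66 at ZT4 and 11.53 at ZT8, against 12.37 at CT16 and 12.5 at CT20. The lack of overlap in the ratio thus rests on Mlc2 as well as on Act88F. At ZT16 and ZT20 Act88F did not exceed the highest mouse or yeast control value, and at ZT4 and CT16 it lay close to it. In these arrays the ratio sets a value at or near background against Mlc2.

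For fln the ratio lay between -9.37 and -8.36 at 16 and 20 h and between -8.11 and -3.88 at the other hours. All fln values at 16 and 20 h, and those at ZT4, ZT8 and ZT24, lay within the range of the mouse and yeast controls. In these arrays the ratio sets a background value against Mlc2. The means differed by -2.10, a 4.28-fold lower ratio, again without overlap (exact permutation test, two-sided, p = 0.00404, adjusted 0.0121). That p is the smallest that 4 against 8 arrays can give. For TpnC4 the ratio overlapped between the hours and the means differed by -1.14 (exact permutation p = 0.0404, adjusted 0.0808). The TpnC4 difference was -0.64 without CT12 and -0.51 without ZT4 and CT12. Over the alternatives, which include Mlc1, up or the mean of the 4 general members as the denominator, the difference lay between -2.84 and -2.14 for Act88F and between -2.29 and -1.69 for fln.

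**Figure D3:**
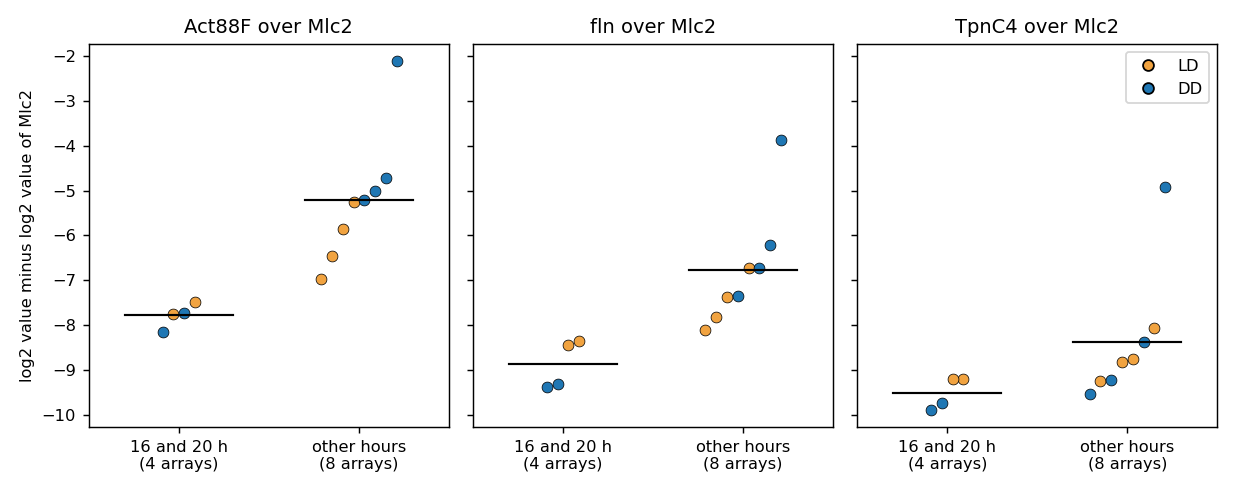
Log2 value of Act88F, fln and TpnC4 minus that of Mlc2 (vertical axis) in the 4 arrays at 16 and 20 h and the 8 arrays at the other hours, coloured by day, with the mean as a bar. For Act88F and fln every array at 16 and 20 h lies below every other array; for TpnC4 the groups overlap.

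The estimates of the flight muscle members at 16 and 20 h were negative on each day. In the LD day alone, with 2 arrays against 4, Act88F differed by -1.38 and fln by -0.80, and in the DD day alone by -3.40 and -3.03. None passed in limma on these 6 arrays each (adjusted p 0.921 or higher for these genes). The test of the difference between the days gave -2.02 ± 1.08 (log2, SE) for Act88F, with an unadjusted p of 0.0879, and -2.23 ± 1.02 for fln, with an unadjusted p of 0.0507. Both had a limma adjusted p of 1. Without CT12 the estimates were -1.41 for Act88F and -1.61 for fln, and without ZT4 and CT12 -1.03 and -1.39. No probe set passed that test after adjustment (0.00%), and 239 (1.71%) had an unadjusted p under 0.05, with 0 of the 7 members among them.

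Between the days, every member had a higher mean in DD, where 50% of all probe sets had a positive fitted difference. The members share the same arrays, so they do not count as separate observations. Act88F averaged 4.88 ± 1.13 (SD, n = 6) in LD and 6.77 ± 2.01 (n = 6) in DD. Mlc1 averaged 8.44 ± 0.264 in LD and 9.38 ± 0.540 in DD, and Mlc2 11.51 ± 0.445 and 12.25 ± 0.266. The means of up were 6.73 ± 0.510 and 7.49 ± 0.581, and those of Act79B 8.11 ± 0.676 and 8.83 ± 0.770. For fln they were 3.70 ± 0.741 and 5.11 ± 1.89, and for TpnC4 2.63 ± 0.237 and 3.64 ± 1.66.

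No member passed in the limma fit of DD minus LD with a cosine and sine of clock time, in which 12 of 13966 probe sets (0.0859%) passed. The estimates were 1.89 ± 0.780 (log2, SE) for Act88F, 1.41 ± 0.700 for fln and 1.01 ± 0.580 for TpnC4, each with a limma adjusted p of 0.999. Among the general members Mlc1 differed by 0.94 ± 0.223 (1.92-fold, adjusted p 0.396), Mlc2 by 0.74 ± 0.190 (1.68-fold, adjusted p 0.470), up by 0.76 ± 0.267 and Act79B by 0.72 ± 0.399 (adjusted p 0.999 for both). The light chain genes thus had smaller estimates than the flight muscle members and smaller standard errors. At an unadjusted p under 0.05, 4 of 7 members were higher in DD (Act88F, Mlc1, Mlc2 and up), against 2.33% of all probe sets (4.41% in either direction). In all, 0 of 7 members had all DD arrays above all LD arrays (0.279% of probe sets).

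Single arrays bore on these estimates. Without CT12 the difference was 1.27 for Act88F, 0.83 for fln and 0.35 for TpnC4, and 0.86 for Mlc1, 0.84 for Mlc2 and 0.96 for up. Without ZT4 and CT12 it was 0.83, 0.55 and 0.27 for the flight muscle members, and 0.90 for Mlc1, 0.66 for Mlc2, 0.55 for Act79B and 0.73 for up. Without CT24 Mlc1 rose by 1.15 and passed (limma adjusted p 0.0179). With the 3' minus 5' control signal as a covariate Mlc2 rose by 0.79 and passed (limma adjusted p 0.0162). The limma adjusted p of Mlc1 was between 0.0179 and 0.991 over its 20 alternatives, and that of Mlc2 between 0.0162 and 1.

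The day difference was followed by clock time. For Act88F it was 3.10, 2.75 and 3.24 at 4, 8 and 12 h, then 0.12 at 16 h, 0.96 at 20 h and 1.17 at 24 h. For fln it was 1.39, 2.35 and 2.94, then -0.07, -0.09 and 1.93. For Mlc2 it was 1.36, 0.96 and 0.10, then 0.80, 0.93 and 0.32. The values of Mlc1, Mlc2 and up at 16 and 20 h were higher in DD by between 0.80 and 1.40, and those of Act79B by 0.03 and 1.63. Act88F at 20 h (0.96) lay within the range of the general members.

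In a fit with separate day differences for 16 and 20 h and for the other hours, DD minus LD at 16 and 20 h was 1.24 ± 0.390 (log2, SE) for Mlc1, 0.86 ± 0.342 for Mlc2 and 1.07 ± 0.498 for up. It was 0.54 ± 0.882 for Act88F and -0.08 ± 0.830 for fln. At the other 4 hours it was 2.57 ± 0.624 for Act88F and 2.15 ± 0.587 for fln, and 0.79 ± 0.276 for Mlc1 and 0.69 ± 0.242 for Mlc2. None of these passed after adjustment in limma (adjusted p 0.617 or higher). At 16 and 20 h both DD arrays lay above both LD arrays in 6 of 7 members (all but fln), against 22.5% of all probe sets. Act88F, TpnC4 and Mlc2 had higher values in DD at all 6 clock times, 3 of 7 members against 2.03%. For TpnC4 both counts rest on values at or below the highest mouse or yeast control, except at CT12, and so do the Act88F values at ZT16 and ZT20.

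**Figure D4:**
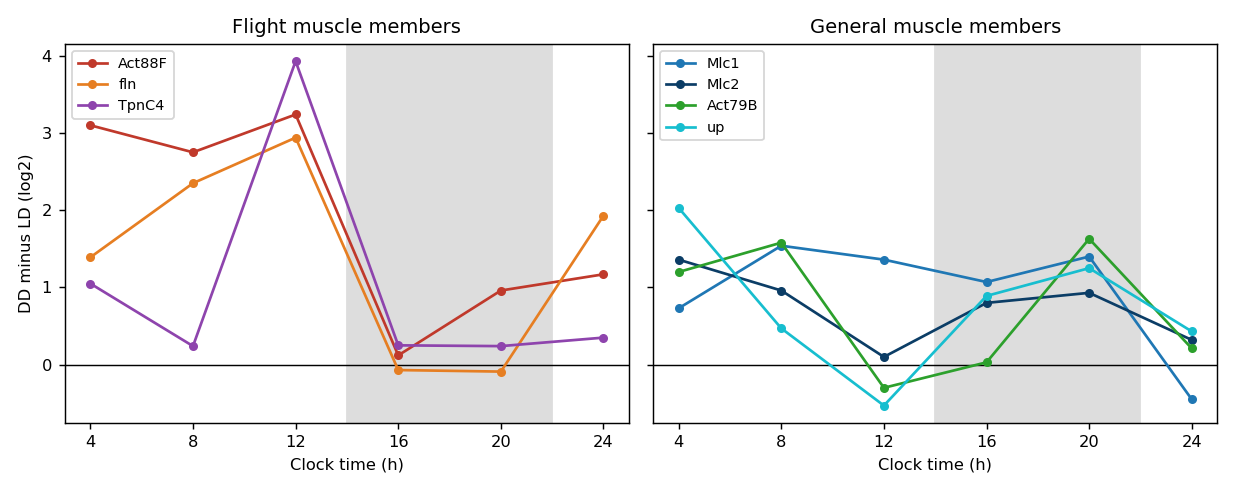
DD minus LD (log2, vertical axis) at each clock time in hours, 1 pair of arrays per point, for the flight muscle members (left) and the general members (right); grey marks 16 and 20 h. At 16 and 20 h Act88F differs by 0.12 and 0.96 and fln by -0.07 and -0.09; Mlc1, Mlc2 and up lie between 0.80 and 1.40 and Act79B at 0.03 and 1.63.

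The ratio of a flight muscle gene to Mlc2 did not pass between the days. For Act88F its mean was -6.63 ± 0.961 (SD, n = 6) in LD and -5.49 ± 2.21 (n = 6) in DD, a difference of 1.15 (exact permutation test, two-sided, p = 0.275, adjusted 0.412). For fln the difference was 0.66 (exact permutation p = 0.496, adjusted 0.595) and for TpnC4 0.27 (exact permutation p = 0.918, adjusted 0.918). With 1 array left out the difference lay between 0.47 and 1.68 for Act88F and between 0.0124 and 1.11 for fln. The lowest values were those without CT12, and the highest those without CT16 for Act88F and without CT20 for fln. The sign turned for TpnC4 without CT12 (-0.47).

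No member passed as rhythmic over 24 h in the limma F test. The fitted amplitude was 1.05 for Act88F with a peak at 7.82 h, and 0.87 for fln with a peak at 8.65 h. It was 0.71 for TpnC4 and between 0.12 and 0.34 for the general members, whose fitted peaks lay between 14.4 and 21.7 h. The limma adjusted p was between 0.994 and 0.995. At an unadjusted p under 0.05 there were 0 of 7 members, against 3.34% of all probe sets, and 0.00716% of probe sets passed after adjustment.

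Other genes of the sarcomere and its attachments were counted from a list of 37, of which 30 were measured. None passed in the limma tests of day, of 16 and 20 h or of their interaction after adjustment, and 7, 1 and 2 of the 30 had an unadjusted p under 0.05 (4.41%, 7.07% and 1.71% of all probe sets). In DD minus LD 18 of 30 had a positive estimate, with a median of 0.0574 (50.0% of all probe sets were positive). At an unadjusted p under 0.05, 7 of 30 were higher in DD, against 2.33% of all probe sets. The 4 of smallest p were Actn, the Z-disc protein alpha-actinin (0.46 ± 0.143, log2, SE), SERCA, the calcium pump of the sarcoplasmic reticulum (0.32 ± 0.106), Prm, the thick filament core protein paramyosin (0.61 ± 0.206), and TpnC41C, a further troponin C (1.24 ± 0.449). Their limma adjusted p lay between 0.811 and 0.999.

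Some genes of the list were highest at CT12 and others lowest at ZT4 and CT12. TpnC41C had the largest range of the list, 3.60, with 8.56 at CT12, 7.03 at CT4 and 4.95 at ZT16. Mf, which encodes the thick filament protein myofilin, had 9.70 at CT12 and 7.65 to 8.90 elsewhere. The tropomyosin gene Tm2 had its lowest values at ZT4 (5.54) and CT12 (6.08) and lay between 6.57 and 7.55 elsewhere. Act87E, an actin measured by a probe set of the kind that matches several family members, also had its lowest values at ZT4 (8.57) and CT12 (9.20).

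At 16 and 20 h the 30 genes had a median difference of -0.0366, and 13 were positive. The 4 of smallest p were Strn-Mlck, a myosin light chain kinase (-0.19 ± 0.082, log2, SE), the formin gene Fhos (-0.23 ± 0.135), TpnC73F, a troponin C (-0.22 ± 0.128), and cpa, a subunit of the actin capping protein (-0.15 ± 0.101). Their limma adjusted p lay between 0.654 and 0.809. All 4 differences were much smaller than those of Act88F and fln. In 0 of the 30 genes did all arrays at 16 and 20 h lie below the other 8, a separation seen in 1.0% of all probe sets. At that share a count of 0 among 30 genes does not set them apart. TpnC41C differed by -0.54 ± 0.441 and Mf by -0.28 ± 0.279.

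Markers of other body parts were also low at 16 and 20 h. Of the 16 measured midgut markers, 15 had a lower mean at 16 and 20 h, and in 11 all 4 arrays at those hours lay below the other 8 (1.0% of all probe sets; 45.7% of all probe sets had a positive fitted difference at those hours). The mean level of the 16 markers, taken over values centred on each gene, lay between -0.925 and -0.892 at 16 and 20 h and between -0.278 and 1.24 at the other hours. The serine protease gene Jon99Fi lay at 2.40 to 2.74 at 16 and 20 h and at 4.34 or above otherwise. At 16 and 20 h it did not exceed the highest mouse or yeast control value.

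Of the 11 measured markers of the male accessory gland, 11 had a lower mean at 16 and 20 h, and in 7 all 4 arrays lay below the other 8 (1.0% of all probe sets). Of these 7, Acp62F, Acp95EF and Mst57Da lay above the control range in all arrays. Acp26Aa, Acp36DE, Acp53Ea and Acp63F did not exceed the highest control value in 7 to 12 arrays. The separation of the latter genes is thus partly or wholly one of background values. The mean level of all 11 markers lay between -0.853 and -0.698 at those hours and between -0.268 and 2.06 at the others. The highest value was at CT12. In all arrays, 3 of the 11 did not exceed the highest control value. The sex of the flies is not given, so the share of males per array is unknown. Across the 12 arrays Act88F correlated with the midgut level at 0.833 and with the accessory gland level at 0.852, and Mlc2 at 0.0247 and -0.0613, as a description over arrays.

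The 8 ovary and eggshell markers showed no such course, with a mean level between -0.058 and 0.00385 at 16 and 20 h and between -0.156 and 0.475 at the other hours. The value of 0.475 was that of ZT12, where the eggshell gene Cp15 had its highest value, 9.76, against its lowest of 5.71 at CT8. The head markers lay between -0.0135 and 0.0913 at 16 and 20 h and had their lowest values at CT12 (-0.571) and ZT4 (-0.331). By day, 12 of 16 midgut and 11 of 11 accessory gland markers had a higher mean in DD. Of all probe sets, 50.0% had a positive fitted difference in DD minus LD. The 11 include the 3 that did not exceed the highest control value in any array. The part of these tissues, or of thorax pieces passing the sieves, in the values of the muscle genes was not tested.

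**Figure D5:**
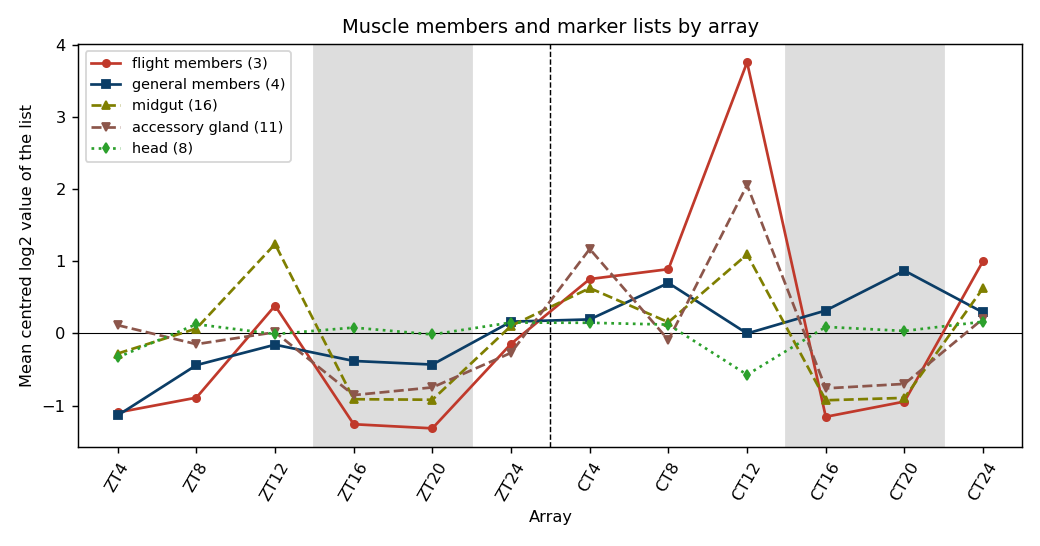
Mean of gene-centred log2 values (vertical axis) of the flight muscle members, the general members and 3 marker lists in each array, with the number of genes in brackets; grey marks 16 and 20 h and the dashed line divides LD from DD. The flight muscle members, midgut markers and accessory gland markers are all low at 16 and 20 h of both days, while the general members range from -0.43 to 0.87 there. The flight muscle members are about as low at ZT4 (-1.09) and ZT8 (-0.889).

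Outside the muscle lists, the genes most like Act88F over the 12 arrays were sought among 5711 genes with a mean above the median. The 8 of highest Pearson r were CG16904 (0.931), msopa (0.898), LysB (0.897), Ebp (0.888), CG12990 (0.885), ATPsynB (0.884), CG3168 (0.883) and LysC (0.883). LysB and LysC encode lysozymes of the gut and are close relatives whose probes may share signal, Ebp encodes a protein of the ejaculatory bulb, and ATPsynB a subunit of the mitochondrial ATP synthase. All 8 had their highest value at CT12. Ebp lay between 4.03 and 4.30 at 16 and 20 h and between 6.22 and 9.61 at the other hours.

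The 8 genes most like Mlc2 were others. They were CG1143 (0.932), CG15021 (0.895), Alas (0.890), Cpr100A (0.884), Wdr37 (0.872), CG16721 (0.870), Cpr62Bb (0.865) and COX5A (0.863). Alas encodes the enzyme that starts haem synthesis, Cpr100A and Cpr62Bb cuticle proteins, and COX5A a subunit of cytochrome c oxidase. Cpr100A lay between 6.65 and 7.18 in LD and between 7.25 and 8.36 in DD, without overlap (0.279% of all probe sets). In 0 of these 8 genes did the arrays at 16 and 20 h all lie below the others, against 6 of the 8 genes most like Act88F. Both sets were picked by their values, so these counts describe them and test nothing.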

How the data were processed

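For each of 12 time points, cRNA labelled with biotin from 1 pool of sieved heads was hybridized to an Affymetrix Drosophila array, per the labels' protocols. The authors deposited 1 log2 value per probe set, and the submitters' processing notes name RMA. Its version and which arrays were processed jointly were not found in those sources. Since RMA equalizes the distributions of arrays, a shift common to most genes could not be seen. Nothing states that time points came from separate cultures, so p-values measure the scatter between single arrays.

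Titles gave the groups (6 LD and 6 DD arrays). Of 14010 probe sets, 44 controls were left out and 13966 tested. Names came from the platform annotation, updated through RefSeq (12444 probe sets with 1 gene, 327 with several, 1195 with none). A gene was represented by its probe set of highest mean. Tests used limma 3.58.1 in R 4.3.3 (lmFit, eBayes, Benjamini-Hochberg over all probe sets at 0.05) and, for ratios, exact permutation tests in scipy 1.17.1. The fits were tested on simulated data.

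The members, the choice of 16 and 20 h and the gene lists (other muscle, midgut, accessory gland, ovary, head) were chosen with earlier results of these data known. Named were all members, the 4 other muscle genes of smallest p in each comparison and of largest range, and the 8 genes most like Act88F and Mlc2. Mhc had no named probe set, so Mlc2 replaced it in the ratios and among the likenesses. Alternatives left out each array, left out ZT4 and CT12, added the 3' minus 5' control signal or clock time to the fit, and changed the probe set, variance model or denominator.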

Additional observations from a re-analysis of the deposited data

Results flagged for a closer look

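In 14 groups (7 members on each day), 2 had an array far from the other 5 by a gap test, which chance flags in about 1 in 20 groups. TpnC4 at CT12 was 6.93, where the other DD arrays lay between 2.62 and 3.64. Mlc2 at ZT4 was 10.66, where the other LD arrays lay between 11.53 and 11.96. The 3' minus 5' control signal was 3.46 at CT12 and 3.12 at ZT4, and its part was not tested.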

How the results depend on the processing

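Of 541 values of single members under the alternatives, 519 kept their direction and side of the threshold, 3 passed it and 19 changed sign. Members that passed in DD minus LD numbered 1 with the 3' minus 5' control signal as a covariate and 0 to 1 with 1 array left out. At 16 and 20 h, 1 passed without ZT4 and CT12. Over all probe sets, 12 passed in DD minus LD, 30 with the covariate and 1 to 22 with 1 array left out. At 16 and 20 h, 14 passed, against 23 without ZT4 and CT12, 7 with clock time as a random replicate block, 0 in LD alone, 4 in DD alone and 3 to 28 with 1 array left out. For rhythm, 1 passed, against 2 with the covariate, 0 without ZT4 and CT12, 0 with trend and robust variances and 0 to 1 with 1 array left out.

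Signs changed at 16 and 20 h for Mlc2 (-0.000167) and up (-0.0575) without ZT4 and CT12, for Mlc2 (-0.0142) and up (-0.0218) with the covariate, for Mlc1 in LD alone (-0.0733), for Act79B in DD alone (0.0585) and for the other probe set of up (-0.0119). Leaving out 1 array gave Act79B -0.31 to 0.23. In the difference between days of that effect they changed for Mlc2 (-0.0315) and Act79B (-0.23) with the covariate, and leaving out 1 array gave Act79B -0.57 to 0.88. The TpnC4 to Mlc2 ratio in DD minus LD was -0.31 without ZT4 and CT12 and -0.47 to 0.52 with 1 array left out. The cause was not tested.

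Same-hour arrays share a clock time only: their deviations from the day means correlated at -0.00338 at 12 h and 0.113 to 0.547 at the other hours. With clock time as a replicate block, 11 probe sets and 0 members passed in DD minus LD (Act88F 1.89, limma adjusted p 0.438). Single arrays per time point, and flight muscle values near the control range, limit these results.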
